A study of Mus musculus with 9 samples.

Results

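The p53 pathway genes described here are 33 genes chosen by name from the 55487 genes of the count table: Trp53, which encodes p53 itself, the regulators that act back on p53, and genes that p53 is known to switch on. They were sorted by role into feedback (5 genes), cell cycle arrest and stress restraint (8 genes), cell death (14 genes) and DNA repair and nucleotide supply (6 genes). Each symbol matched 1 row, and all 33 passed the filter on low counts. The tissue was mouse retina kept alive in culture as an explant. Wild-type C57Bl/6J mice aged 28 days gave the retinas, which were freed of sclera and pigment epithelium and held for 48 h in Neurobasal-A medium with 5 mM glucose. The 5 control libraries come from retinas without further addition, and the 4 libraries of the treated group from retinas that also received 2-deoxy-D-glucose (2-DG) at 20 mM, a glucose analog that blocks glycolysis. Groups follow the sample titles and treatment labels, since the protocol text is the same for all 9 samples and names 2-DG for the controls too. Both groups then spent 1 h in Krebs' Ringer medium before total RNA was taken.

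p53 is a transcription factor that is held at low levels by the ubiquitin ligase Mdm2, and Mdm2 is itself a p53 target, so the pair forms a feedback loop. DNA damage and other stresses release p53, which then binds its response element near target genes and can halt the cell cycle through Cdkn1a, favour repair, or promote death through genes such as Bax, Bbc3 and Fas. Much of the control acts on the p53 protein, which RNA-seq does not measure. Mature retinal neurons do not divide.

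Because p53 acts through promoters and introns of its targets, the windows from 250 bases before to 50 bases after the RefSeq start sites (GRCm38.p6) were searched on both strands for the p53 response element, which consists of 2 decamers with at most 13 bases between them. A decamer had to match RRRCWWGYYY (R for A or G, W for A or T, Y for C or T) without a mismatch. Of the 33 genes, 25 had a window. Zmat3, Pmaip1, Tnfrsf10b, Perp, Trp53inp1, Rrm2b, Xpc and Ddb2 had none. Cdkn1a, which had a window at each of 2 start sites, was the only gene of the set with a window that held a pair of decamers, which 20 of 27025 genes (0.074%) shared. The pair lay in the upstream window, and the downstream one (chr17:29093519-29093818) held no decamer. The stretch before the upstream start site is shown because Cdkn1a is the classic p53 target and its difference between the groups depended on which libraries were included. It lies at chr17:29090729-29090968 on the plus strand, and capitals mark the decamers that matched in full. The run tgacatgttc directly after the second of them differs from the pattern at its first base only. It was therefore neither marked nor counted, and the full element may be placed otherwise than the capitals show.

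Cdkn1a: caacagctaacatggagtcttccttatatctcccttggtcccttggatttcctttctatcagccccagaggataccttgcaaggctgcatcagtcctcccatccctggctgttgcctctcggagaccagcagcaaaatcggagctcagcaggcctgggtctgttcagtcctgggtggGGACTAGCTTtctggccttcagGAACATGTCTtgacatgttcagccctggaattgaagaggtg

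At least 1 decamer stood in the windows of 11 of the 25 genes (44.0%), Cdkn1a included, against 2582 of 27025 genes (9.55%). A match of this kind is a run of letters and not a measured binding site. The feedback genes and the death genes Bax, Ei24 and Aen are shown with the decamer in capitals and 10 bases on each side, to set 4 of the 5 feedback genes beside each other.

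Mdm2: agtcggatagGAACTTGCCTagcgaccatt
Trp53: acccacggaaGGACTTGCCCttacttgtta
Ccng1: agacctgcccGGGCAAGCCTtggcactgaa
Ppm1d: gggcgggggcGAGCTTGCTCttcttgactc
Bax: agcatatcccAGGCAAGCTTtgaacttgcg
Ei24: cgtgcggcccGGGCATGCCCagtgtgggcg
Aen: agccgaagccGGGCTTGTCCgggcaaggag

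These decamers lie at chr10:117710935-117710944 (minus strand) for Mdm2, chr11:69580284-69580293 (plus) for Trp53, chr11:40755462-40755471 (minus) for Ccng1, chr11:85311122-85311131 (plus) for Ppm1d, chr7:45467090-45467099 (minus) for Bax, chr9:36797335-36797344 (minus) for Ei24 and chr7:78895937-78895946 (plus) for Aen. Gadd45a, Sesn1 and Polk also held one. No decamer stood in the windows of Fas, Btg2, Psrc1, Phlda3, Eda2r, Mdm4, Plk2, Plk3, Apaf1, Bbc3, Dram1, Pidd1, Ercc5 and Tigar. Sequence outside the windows was not searched, so an element there, or one cut by a window edge, would be missed.

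Libraries held between 11318087 and 51802230 estimated counts. Levels are given as CPM, the count scaled to the size of its library. Rod markers were high in every library, with the rod transducin gene Gnat1 between 994 and 8792 CPM, while the 5 lens markers summed to between 0.611 and 13.7 CPM, with Lim2 at 0 in all 9. Control replicate 2, control replicate 5, 2-DG replicate 3 and 2-DG replicate 4 each stood apart from their group in some of the markers. Control replicate 2 had a summed level of 8 rod markers of 20034 CPM, against 2350 to 7888 in the other controls. Its share of mitochondrial counts was 10.7%, against 3.63% to 9.97% in the other controls. 2-DG replicate 4 had a summed level of 5 vessel markers of 2452 CPM, against 391 to 834 in the other 2-DG libraries and 228 to 1890 in controls, and 13.6% mitochondrial counts, against 3.4% to 6.05% in the other 2-DG libraries. Its 5 bipolar cell markers summed to 271 CPM, against 1476 to 2747 in the other 2-DG libraries and 143 to 1756 in controls. Control replicate 5 was the control with 143 CPM, against 405 to 1756 in the other controls. Its vessel markers summed to 1890 CPM (228 to 998 in the other controls) and its 6 Müller glia markers to 6230 CPM (1432 to 3822). In 2-DG replicate 3 the 5 cone markers summed to 634 CPM, against 40.6 to 86.1 in the rest of its group and 511 in control replicate 2. The 5 pigment epithelium markers summed to 87.1 CPM in 2-DG replicate 3, against 1.53 to 19.9 in the rest of its group and 2.44 to 9.18 in controls, although this layer was removed at dissection. Values without control replicate 2, 2-DG replicate 4 or both are given beside the results that they alter. Control replicate 5 stayed in those fits. The part of cell composition in these values was not tested, and in bulk tissue fewer cells of a type and less RNA per cell cannot be told apart. The labels call the libraries biological replicates without naming animals, so p-values measure the spread between these samples.

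With all 9 libraries, 0 of the 33 genes passed an adjusted p of 0.05 in edgeR's quasi-likelihood test, nor did any of the 21049 genes tested (0%). At an unadjusted p under 0.05, 4 of the 33 genes (12.1%) were called, against 1526 of 21049 genes (7.25%). All 4 were lower with 2-DG: Fas, Btg2, Psrc1 and Mdm2. Lower calls made up 4.83% of all genes tested. The 33 genes had a median log2 fold change (2-DG minus control) of -0.15, the whole table one of -0.01, and 22 of the 33 (66.7%) lay below 0, against 50.8% of all genes. Without 2-DG replicate 3 the median was -0.09 and 18 of the 33 (54.5%) lay below 0, against 52.3% of all genes. The median was -0.44 without 2-DG replicate 4, with 24 of 33 below 0 (53.5% of all genes), and -0.50 without that library and control replicate 2, with 26 of 33 below 0 (50.7% of all genes).

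By role, median values were 0.06 for feedback, -0.29 for arrest, -0.15 for death and -0.17 for repair. The death median was 0.02 without 2-DG replicate 3, with 8 of 14 genes above 0, and -0.57 without 2-DG replicate 4. The feedback median was 0.40 without control replicate 3 and -0.14 without control replicate 2. The arrest median ranged from -0.82 without 2-DG replicate 4 to -0.14 without 2-DG replicate 2, and the repair median was 0.04 without control replicate 2. Arrest held 2 of the genes called at an unadjusted p under 0.05, feedback and death 1 each, and repair 0. Other tests of the same 9 libraries called more genes at the adjusted threshold. DESeq2 passed 1 of the 33 genes, Fas, at an adjusted p of 0.05 (1.35% of all genes tested) and limma-voom with sample quality weights passed 8 (5.81% of all genes): Mdm2, Btg2, Cdkn1a, Pmaip1, Fas, Eda2r, Phlda3 and Psrc1, all lower with 2-DG. At an unadjusted p under 0.05 limma-voom called 14 of the 33, 3 of them higher, against 26% of all genes. The plot of fold changes by role shows the edgeR values beside those obtained without control replicate 2 and 2-DG replicate 4.

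**Figure D1:**
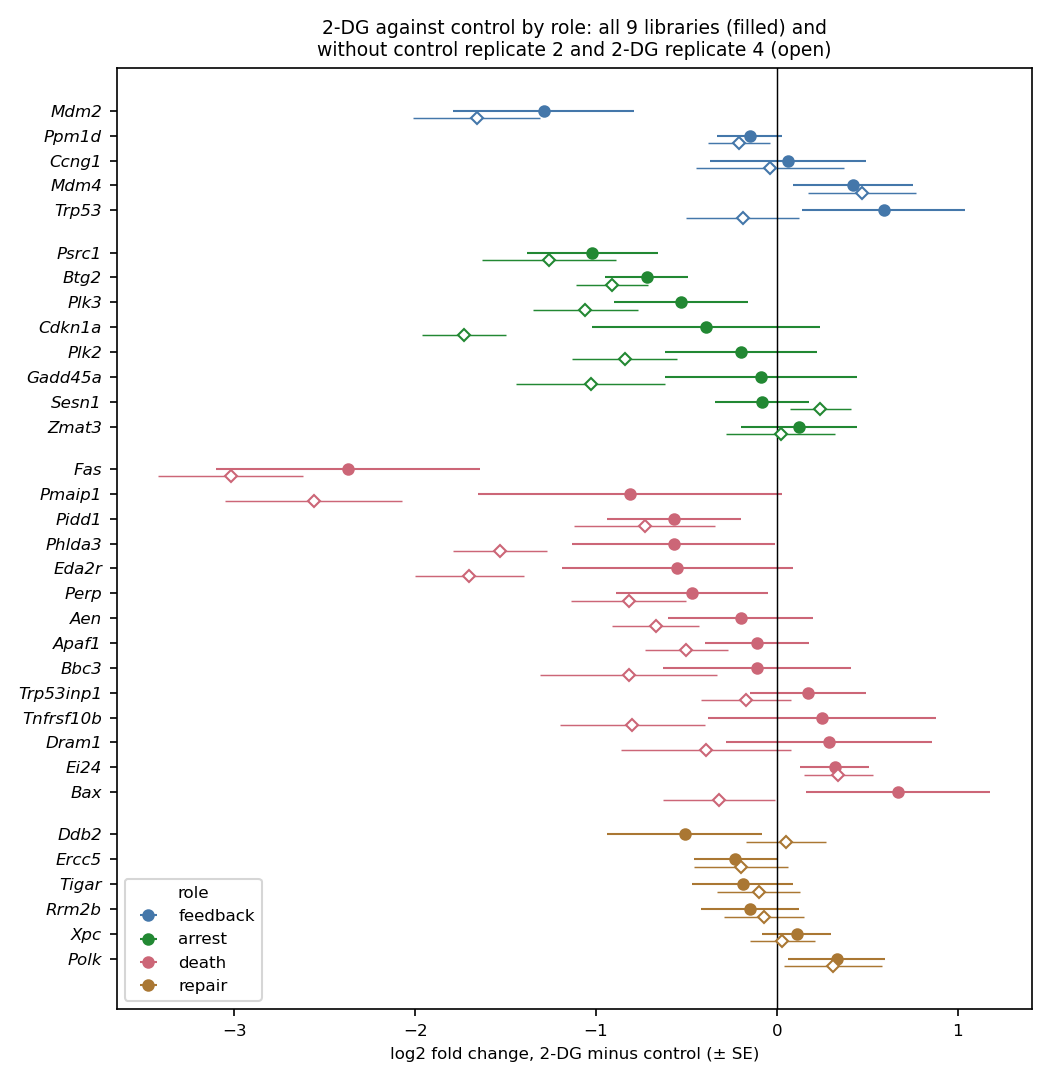
Log2 fold change of each p53 pathway gene (2-DG minus control, horizontal axis, ± SE) by role, with all 9 libraries (filled circles) and without control replicate 2 and 2-DG replicate 4 (open diamonds). Most arrest and death genes lie further to the left without the 2 libraries, for example Cdkn1a at -1.73 in place of -0.39, while the repair genes range from -0.51 to 0.33 with all libraries and from -0.20 to 0.31 without the 2.

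Among the feedback genes, Trp53 (chr11:69580359-69591873, plus strand) was at 50.9, 33.3, 51.6, 93 and 116 CPM in control replicates 1 to 5. In 2-DG replicates 1 to 4 it was at 71.3, 71, 64.1 and 208 CPM. The first 3 2-DG libraries lay inside the control range and 2-DG replicate 4 above it. The log2 fold change was 0.59 ± 0.45 (SE, edgeR, adjusted p = 0.805), and it was -0.01 without 2-DG replicate 4 and -0.19 without both libraries.

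Mdm2 (chr10:117688875-117710758, minus strand), the ligase that marks p53 for degradation, was at 392, 84.3, 635, 569 and 273 CPM in control replicates 1 to 5. With 2-DG, replicates 1 to 4 were at 149.6, 191, 105 and 195 CPM. All 2-DG libraries lay below 4 of the 5 controls, and control replicate 2 lay below them all. The log2 fold change was -1.29 ± 0.50 (edgeR, unadjusted p = 0.0262, adjusted p = 0.636). Without control replicate 2 the groups were apart and the difference was -1.55 ± 0.32 (unadjusted p = 0.00095, adjusted p = 0.104). The edgeR value passed to the other side of 0.05 without control replicate 3 (unadjusted p = 0.0654), control replicate 4 (unadjusted p = 0.0519), 2-DG replicate 1 (unadjusted p = 0.0594) or 2-DG replicate 3 (unadjusted p = 0.0744).

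Mdm4, a relative of Mdm2 that inhibits p53 activity, lay in the other direction. It was at 165, 73, 162, 94.4 and 69.6 CPM in control replicates 1 to 5 and at 168, 164, 177 and 95.9 CPM in 2-DG replicates 1 to 4. The groups overlapped, with a log2 fold change of 0.42 ± 0.33 (edgeR, adjusted p = 0.805). Ppm1d, a phosphatase that dampens the damage response, was between 41 and 56 CPM in controls and between 38.7 and 44.2 CPM with 2-DG, with a log2 fold change of -0.15 ± 0.18. Ccng1, which encodes cyclin G1, ranged from 75 to 349 CPM in controls and from 155 to 251 CPM with 2-DG, and its difference of 0.06 ± 0.43 turned to -0.14 without control replicate 2 and to -0.04 without both libraries.

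**Figure D2:**
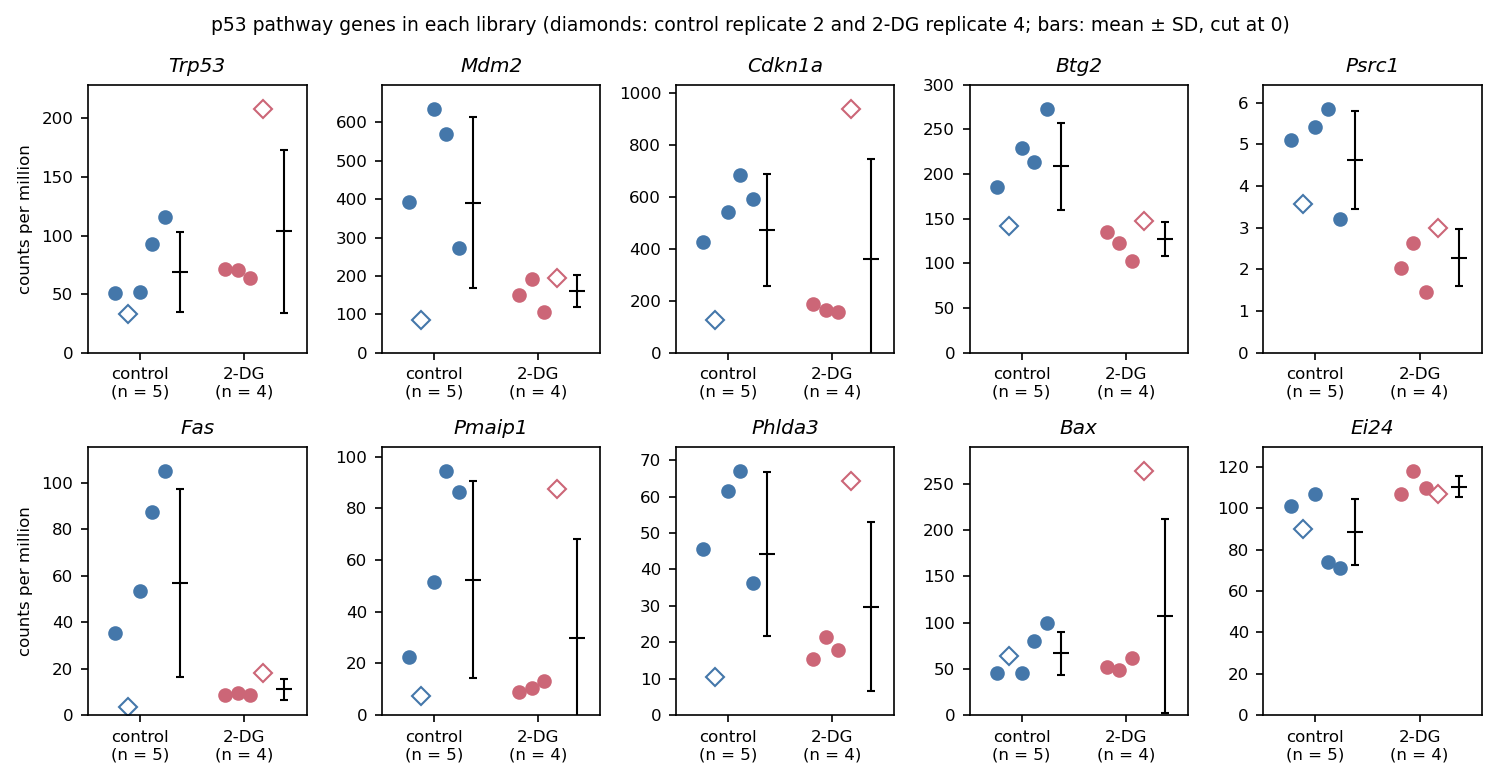
Level (CPM, linear axis from 0) of 10 p53 pathway genes in each of 5 control and 4 2-DG libraries, with the mean ± SD beside each group (bars cut at 0). Diamonds mark control replicate 2 and 2-DG replicate 4, which for Cdkn1a (125 and 939.8 CPM), Pmaip1 and Phlda3 lie at the far ends of their groups.

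Cdkn1a (chr17:29090976-29100727, plus strand), which encodes the cyclin-dependent kinase inhibitor p21, was at 426, 125, 541, 685 and 592 CPM in control replicates 1 to 5. The 2-DG replicates 1 to 4 had 187, 165, 156 and 939.8 CPM. The first 3 2-DG libraries lay between control replicate 2 and the other controls, and 2-DG replicate 4 was the highest of all 9. With all libraries the log2 fold change was -0.39 ± 0.63 (edgeR, adjusted p = 0.901). Without 2-DG replicate 4 it was -1.49 ± 0.48 (edgeR, unadjusted p = 0.0112, adjusted p = 0.305), and without both libraries -1.73 ± 0.23 (adjusted p = 0.0297). In the other direction, it was -0.14 without 2-DG replicate 3.

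Btg2 (chr1:134075170-134079120, minus strand), an antiproliferative gene that is also an immediate-early gene, was at 186, 142, 229, 214 and 273 CPM in control replicates 1 to 5. In 2-DG replicates 1 to 4 it was at 135, 123, 103 and 148 CPM. Control replicate 2 and 2-DG replicate 4 were the only libraries by which the groups overlapped. The log2 fold change was -0.72 ± 0.23 (edgeR, unadjusted p = 0.0115, adjusted p = 0.563). It stayed between -0.61 and -0.83 without any single library, with an unadjusted p of at most 0.0386.

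Psrc1 (chr3:108383839-108388231, plus strand), a gene of a spindle-associated protein, was at 5.11, 3.58, 5.42, 5.85 and 3.2 CPM in control replicates 1 to 5. With 2-DG, replicates 1 to 4 were at 2.04, 2.64, 1.46 and 3 CPM. It was the only gene of the 33 (3.03%) whose groups did not overlap, against 617 of 21049 genes (2.93%). The log2 fold change was -1.02 ± 0.36 (edgeR, unadjusted p = 0.0177, adjusted p = 0.604). Its counts were low, from 24 to 222 per library.

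Plk3, a polo-like kinase of the stress response and also an immediate-early gene, was at 32.9, 18.5, 25.7, 40.1 and 47.3 CPM in control replicates 1 to 5. The 2-DG replicates 1 to 4 had 22.9, 13.6, 16.1 and 38.4 CPM. The groups overlapped, and the log2 fold change of -0.53 ± 0.37 (edgeR, adjusted p = 0.788) became -0.91 without 2-DG replicate 4 (unadjusted p = 0.0236) and -1.06 without both libraries (unadjusted p = 0.00547).

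Of the other arrest genes, Plk2, a kinase related to Plk3, was between 214 and 647 CPM in controls and between 254 and 720.5 CPM with 2-DG. Its log2 fold change of -0.20 became -0.84 without both libraries (edgeR, unadjusted p = 0.0199) and -0.03 without 2-DG replicate 2. Gadd45a, a growth arrest gene that ATF4 also induces, was at 25.1 to 85.8 CPM in controls and 18.6 to 106 CPM with 2-DG. It had a log2 fold change of -0.09, 0.18 without 2-DG replicate 3 and -1.03 without both libraries (unadjusted p = 0.0341). Sesn1, a sestrin that restrains mTORC1, was at 42.4 to 88 CPM in controls and 42.3 to 61.1 CPM with 2-DG, with a log2 fold change of -0.08, and 0.15 without control replicate 2, 0.01 without 2-DG replicate 4 and 0.24 without both libraries. Zmat3, an RNA-binding zinc finger gene, was at 32.7 to 88.3 CPM in controls and 56.7 to 73.5 CPM with 2-DG, with a log2 fold change of 0.12, and -0.04 without control replicate 2. The 3 genes that are also immediate-early genes (Btg2, Plk2, Plk3) had a median of -0.53, and all 3 lay below 0.

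Among the death genes, Fas (chr19:34290666-34327772, plus strand), which encodes the Fas death receptor, showed the largest difference of the set. It was at 35.2, 3.65, 53.6, 87.2 and 105 CPM in control replicates 1 to 5. In 2-DG replicates 1 to 4 it was at 8.49, 9.33, 8.41 and 18 CPM. Every 2-DG library lay below 4 of the 5 controls, and control replicate 2 lay below every 2-DG library. The log2 fold change was -2.37 ± 0.73 (edgeR, unadjusted p = 0.00824, adjusted p = 0.538), and without control replicate 2 it was -2.67 ± 0.41 (unadjusted p = 0.000108, adjusted p = 0.062). Without both libraries it was -3.02 ± 0.40 (adjusted p = 0.0297).

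Ei24, a gene of the endoplasmic reticulum linked to autophagy, lay higher with 2-DG. It was at 101, 90.2, 107, 73.9 and 71.3 CPM in control replicates 1 to 5 and at 107, 118, 109.9 and 107 CPM in 2-DG replicates 1 to 4. The lowest 2-DG library equalled the highest control to 3 digits, and the log2 fold change was 0.32 ± 0.19 (edgeR, adjusted p = 0.757). Its value without both libraries was 0.34. Pidd1, which scaffolds caspase-2 activation, was at 11.5, 5.44, 13.1, 4.87 and 6.3 CPM in control replicates 1 to 5. With 2-DG, replicates 1 to 4 were at 5.77, 5.91, 4.39 and 6.09 CPM, inside or just under the range of controls 2, 4 and 5, with a log2 fold change of -0.57 ± 0.37 (edgeR, adjusted p = 0.775). The Pidd1 difference was -0.35 without control replicate 3 and -0.74 without control replicate 4.

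For Pmaip1 (Noxa), Phlda3 and Eda2r, 2-DG replicate 4 lay far above the other 2-DG libraries, as for Cdkn1a, but just under the highest control. Pmaip1, a BH3-only gene that promotes mitochondrial death, was at 8.91, 10.5 and 13 CPM in 2-DG replicates 1 to 3 and at 87.3 CPM in 2-DG replicate 4, against 22.3, 7.52, 51.5, 94.4 and 86.4 CPM in control replicates 1 to 5. Its log2 fold change was -0.81 ± 0.84 with all libraries, -2.27 without 2-DG replicate 4 (unadjusted p = 0.011) and -2.56 without both (edgeR, adjusted p = 0.0614). Phlda3, an inhibitor of Akt signalling, was at 10.5 to 67 CPM in controls and 15.5 to 64.4 CPM with 2-DG. It had a log2 fold change of -0.57 with all libraries, -1.27 without 2-DG replicate 4 (unadjusted p = 0.0305) and -1.53 without both (adjusted p = 0.0473). Eda2r, a receptor of the TNF receptor family, was at 3.79 to 34 CPM in controls and 7.21 to 32.3 CPM with 2-DG. Its log2 fold changes were -0.55, -1.44 (edgeR, unadjusted p = 0.0315) and -1.70 (adjusted p = 0.0508) in the same order. In the other direction, Pmaip1 was at -0.50 and Phlda3 at -0.35 without 2-DG replicate 1, and Eda2r at -0.29 without control replicate 3.

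Bax, the pore-forming effector of mitochondrial death, was between 48.8 and 61.9 CPM in 2-DG replicates 1 to 3, inside the control range of 45.3 to 99.6 CPM, and at 264 CPM in 2-DG replicate 4. Its log2 fold change of 0.67 ± 0.51 turned to -0.30 without that library. Tnfrsf10b, the TRAIL death receptor, turned from 0.25 to -0.53 and Dram1, a lysosomal gene, from 0.29 to -0.15 on the same change, and Tnfrsf10b was at -0.01 without control replicate 2. Tnfrsf10b was at 7.02 to 64 CPM in controls and 18.9 to 93.5 CPM with 2-DG, and Dram1 at 0.644 to 5.01 CPM in controls and 1.61 to 5.2 CPM with 2-DG. Both groups of each overlapped. Trp53inp1, a p53 cofactor gene at 26 to 86.3 CPM in controls and 48.2 to 77.1 CPM with 2-DG, turned from 0.17 to -0.17 without both libraries.

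The remaining death genes lay below 0 with all libraries and further below without both. Perp, a desmosomal membrane gene, went from -0.47 to -0.82 (unadjusted p = 0.0312) and Aen, a nuclease gene, from -0.20 to -0.67 (unadjusted p = 0.0237). Apaf1, the apoptosome scaffold, went from -0.11 to -0.50, and Bbc3 (Puma), a BH3-only gene, from -0.11 to -0.82, both above an unadjusted p of 0.05. In the other direction, Bbc3 was at 0.20 and Aen at 0.00 without 2-DG replicate 3, and Apaf1 was at 0.06 without control replicate 5. Perp was at 1.65 to 6.64 CPM in controls and 2.21 to 4.23 CPM with 2-DG, and Aen at 38.9 to 156 CPM in controls and 56.5 to 151 CPM with 2-DG. Apaf1 was at 34.5 to 77.9 CPM in controls and 34 to 74.9 CPM with 2-DG, and Bbc3 at 5.01 to 15.9 CPM in controls and 2.72 to 16.8 CPM with 2-DG. The groups overlapped for all 4 with all libraries included. The 4 genes that ATF4 or CHOP also induce (Bbc3, Pmaip1, Tnfrsf10b, Gadd45a) had a median of -0.10 with all libraries and -0.92 without both. It was above 0 without 2-DG replicate 3 (0.19), control replicate 5 (0.17) or 2-DG replicate 1 (0.05).

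None of the 6 repair genes had an unadjusted p under 0.05 in edgeR with all libraries or without control replicate 2, 2-DG replicate 4 or both. Ddb2, which recognises ultraviolet damage, was at 18, 57.3, 17.8, 15.1 and 15.1 CPM in control replicates 1 to 5 and at 13.5, 16.1, 21.5 and 18.2 CPM in 2-DG replicates 1 to 4. Only control replicate 2 stood out, and the log2 fold change of -0.51 ± 0.43 (edgeR, adjusted p = 0.82) became 0.07 without it. Polk, a translesion polymerase, was at 21.5, 16, 35.6, 18.7 and 17.6 CPM in controls 1 to 5 and at 28.7, 31.6, 26.4 and 23.1 CPM with 2-DG, with overlapping groups and a log2 fold change of 0.33 ± 0.27 (edgeR, adjusted p = 0.818). Control replicate 3 was its highest library, and without it the groups were apart and the difference was 0.57 ± 0.22 (unadjusted p = 0.0274, adjusted p = 0.721). Polk was the only one of the 33 genes called higher in that fit (3.03%), against 2.39% of all genes.

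Ercc5, a nuclease of nucleotide excision repair, was at 61.9, 48.5, 59.5, 50.8 and 28.7 CPM in controls 1 to 5. With 2-DG it was at 43.6, 44.6, 42.9 and 38.7 CPM, inside the control range, with a log2 fold change of -0.23 ± 0.23 (edgeR, adjusted p = 0.841). Rrm2b, a ribonucleotide reductase subunit, was at 23.8 to 41.9 CPM in controls and 18.6 to 37.1 CPM with 2-DG, with a log2 fold change of -0.15, and 0.02 without 2-DG replicate 4. Xpc, a damage sensor, was at 25 to 37.2 CPM in controls and 31.1 to 34.3 CPM with 2-DG, with a log2 fold change of 0.11. Tigar, which lowers glycolytic flux, was at 18.3 to 45.1 CPM in controls and 20.7 to 31.7 CPM with 2-DG, with a log2 fold change of -0.19, and 0.02 without control replicate 2.

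**Figure D3:**
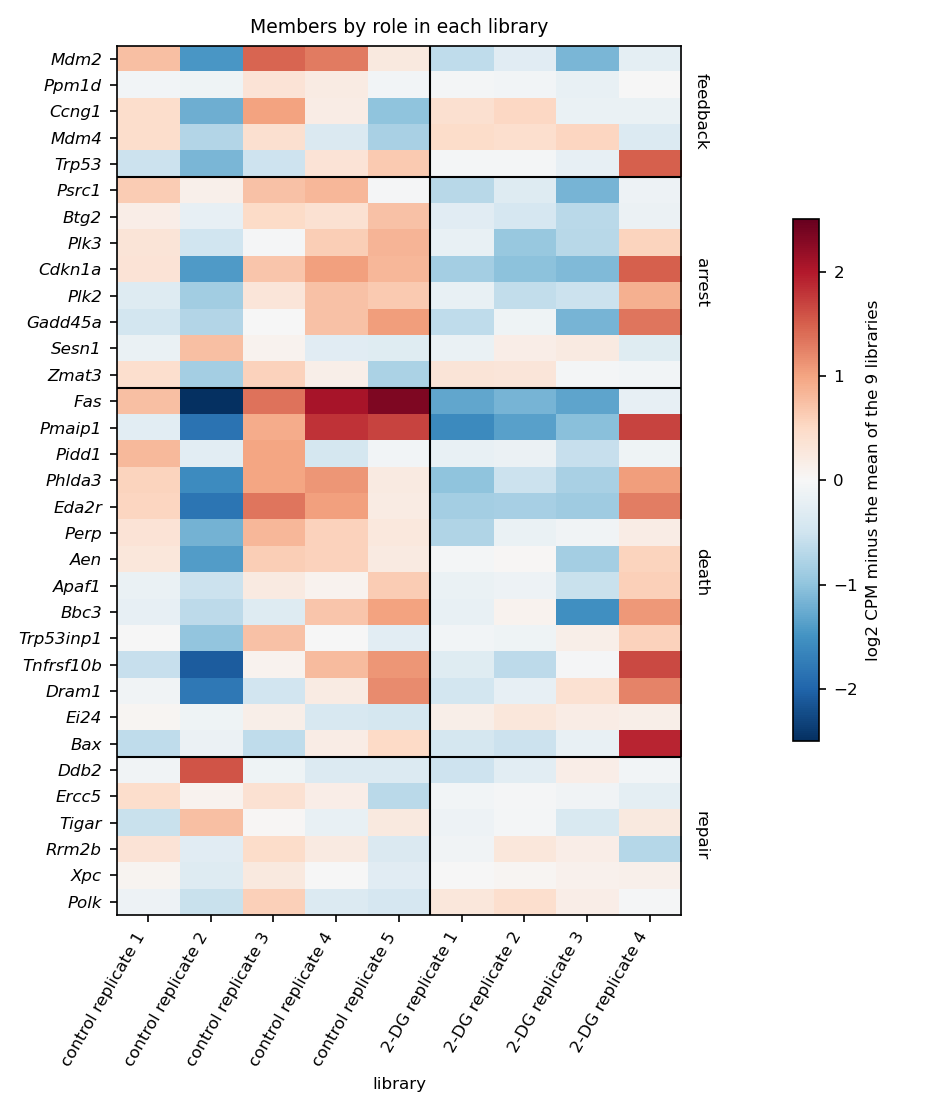
Log2 CPM of each p53 pathway gene minus its mean over the 9 libraries (colour), with genes in rows by role and libraries in columns. Control replicate 2 is blue for most feedback, arrest and death genes. 2-DG replicate 4 is red for most death genes and, among the arrest genes, for Cdkn1a, Gadd45a, Plk2 and Plk3.

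The heat map of the set shows the same 2 libraries across roles. Control replicate 2 had the lowest level of the 5 controls in 23 of the 33 genes, among them 11 of 14 death genes and 4 of 5 feedback genes. 2-DG replicate 4 had the highest level of the 4 2-DG libraries in 24 of 33 genes, 13 of 14 death genes and 6 of 8 arrest genes among them. Control replicate 3 was the highest control in 13 of the 33 genes, and 2-DG replicate 3 the lowest 2-DG library in 15. Ranks were not counted over all genes, so whether these counts are particular to the set was not tested. In repair, control replicate 2 was lowest in 2 of 6 genes and 2-DG replicate 4 highest in 2 of 6. The 2 libraries were singled out with earlier results of these data known, so the values below describe that choice and are not independent support for a direction.

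Without 2-DG replicate 4 alone, 9 of the 33 genes had an unadjusted p under 0.05, all lower with 2-DG, against 12.9% of 21142 genes tested (9.49% lower), and 0 passed an adjusted p of 0.05, which 2 genes (0.00946%) did. Without control replicate 2 alone, 4 of the 33 genes had an unadjusted p under 0.05, against 8.99% of 20632 genes, and 0 passed the adjusted threshold, which 16 genes (0.0775%) did. Without both, 13 of 33 (39.4%) had an unadjusted p under 0.05, all lower, against 15.7% of 21331 genes (10.9% lower). In that fit Cdkn1a, Fas and Phlda3 passed an adjusted p of 0.05 in edgeR, as did 177 genes in all (0.83%). The groups did not overlap for 12 of 33 genes (36.4%), against 16.7% of genes tested, and 11 of the 12 were lower with 2-DG (9.7% of genes tested), Ei24 being the exception. By role the medians without both libraries were -0.19 for feedback, -0.97 for arrest, -0.77 for death and -0.02 for repair, against -0.01 over the whole table.

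**Figure D4:**
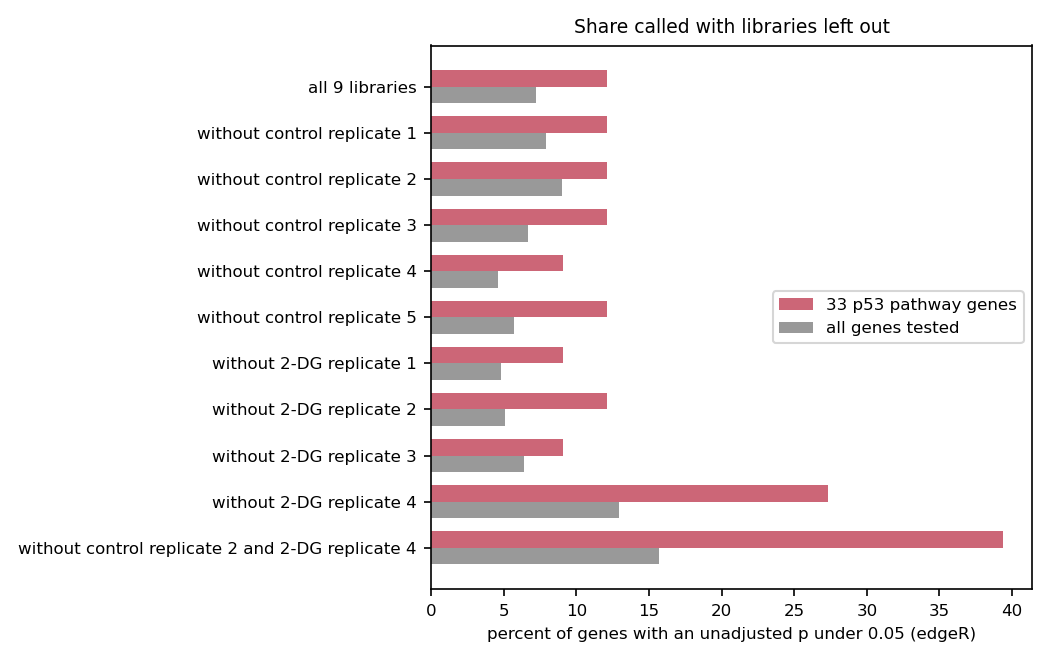
Percent of genes with an unadjusted p under 0.05 in edgeR (horizontal axis) among the 33 p53 pathway genes and among all genes tested, with all 9 libraries and with libraries left out. The share of the 33 genes was 12.1% with all libraries, 27.3% without 2-DG replicate 4 and 39.4% without both libraries, and the share of all genes was 7.25%, 12.9% and 15.7%.

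Müller glia markers were lower with 2-DG in part: 4 of the 6 lay below 0 and 3 had an unadjusted p under 0.05, among them Sox9, a glial transcription factor, at -2.20 ± 0.57. The summed level of the 6 ranged from 1432 to 6230 CPM in controls and from 608 to 2774 CPM with 2-DG. Whether these cells account for the lower Fas, Btg2, Psrc1 and Mdm2 was not tested. Of 3 markers of dividing cells, Mki67 was between 0.143 and 13.7 CPM in controls and between 0.679 and 1.6 CPM with 2-DG, with a log2 fold change of -2.17. Top2a (0.46) and Ccnb1 (0.77) lay above 0, and the summed level of the 3 ranged from 1.43 to 15.7 CPM in controls and from 2.69 to 4.42 CPM with 2-DG.

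At the level of transcripts, 120 transcripts of the 33 genes were tested among 62900. An unadjusted p under 0.05 was reached by 9 of them (7.5%), against 3.45% of all transcripts (edgeR), and the smallest adjusted p rounded to 1. Without control replicate 2 and 2-DG replicate 4 it was reached by 37 of 125 (29.6%), against 8.85% of all transcripts. All 9 were lower with 2-DG and came from 5 genes: 3 of the 5 Fas transcripts, 3 of the 8 Mdm2 transcripts, the only Btg2 transcript, and 1 each of Pidd1 and Mdm4. The most abundant Mdm2 transcript among them, Mdm2-209, is annotated as a target of nonsense-mediated decay. It was at 234, 69.7, 371, 329.8 and 182 CPM in control replicates 1 to 5 and at 48.3, 95.8, 42.8 and 121 CPM in 2-DG replicates 1 to 4, with a log2 fold change of -1.62 ± 0.51. The coding transcript Fas-201 had -2.07 ± 0.86, from between 1.49 and 79.1 CPM in controls to between 5.03 and 18.3 CPM with 2-DG (edgeR, unadjusted p = 0.0379). It was no longer called without any 1 of control replicates 3 to 5 and 2-DG replicates 1 to 3 (unadjusted p from 0.05 to 0.0919).

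Among 20 further p53 targets, 4 had an unadjusted p under 0.05, all lower with 2-DG, against 7.25% of all genes called and 4.83% called lower, and none an adjusted p under 0.05. Ak1, an adenylate kinase, had the smallest p (log2 fold change -0.88 ± 0.25, edgeR, adjusted p = 0.524). Thbs1, a secreted matrix protein, had -2.55 ± 0.79, and Sfn, a 14-3-3 protein, had -0.96 ± 0.40. Sfn was above an unadjusted p of 0.05 without any 1 of control replicates 1, 4 and 5 and 2-DG replicates 1 to 3 (edgeR, 0.0608 to 0.0933). Gdf15, a secreted stress cytokine, was like Cdkn1a within the 2-DG group only, at 379 CPM in 2-DG replicate 4 against 8.86 to 23.2 CPM in the others. In control replicates 1 to 5 it was at 16.3, 10.7, 14.5, 83.8 and 112 CPM. Its log2 fold change was 1.18 ± 1.11 (edgeR, adjusted p = 0.834). The median of the 20 was -0.03 with all libraries, -0.40 without 2-DG replicate 4, -0.45 without that library and control replicate 2, and between -0.07 and 0.08 without any other single library.

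Of 14 genes that act upstream of p53 or belong to its family, 11 were tested, and Trp63, Trp73 and Cdkn2a were too low. Atm, the kinase that activates p53 after double-strand breaks, had a log2 fold change of 1.11 ± 0.41 (edgeR, unadjusted p = 0.021, adjusted p = 0.616). The edgeR value passed to the other side of 0.05 without control replicate 4 (unadjusted p = 0.0513), 2-DG replicate 3 (unadjusted p = 0.0752), or control replicate 2 and 2-DG replicate 4 together (unadjusted p = 0.063). It was at 20.9, 21.3, 43.9, 12.1 and 11.8 CPM in control replicates 1 to 5 and at 30.1, 38.7, 69.2 and 51.2 CPM in 2-DG replicates 1 to 4. Usp7, which stabilises Mdm2 and p53, had 0.42 ± 0.25, with 0.57 without 2-DG replicate 4 (edgeR, unadjusted p = 0.0345, adjusted p = 0.361) and 0.52 without both libraries (unadjusted p = 0.0395, adjusted p = 0.293). The value was 0.57 ± 0.37 for Chek1, a checkpoint kinase. The median of the 11 was 0.15.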

How the data were processed

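Total RNA of 5 control and 4 2-DG explants was sequenced as stranded read pairs of 101 bases from 4 ng of RNA with 13 PCR cycles. The authors deposited estimated counts per gene and per transcript. The submitters' processing notes name kallisto and GRCm38, without a version, and the annotation release and strand setting are not given in the sources used here. The deposited CPM and the authors' own comparison of the groups (fold changes and p-values) were not used.

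Counts were rounded (at most 0.00377% of a library), filtered by filterByExpr (minimum count 10), scaled by TMM and tested with edgeR 4.0.16 (glmQLFit, legacy=TRUE, and glmQLFTest) in R 4.3.3 with group as the only term, on all 21049 genes kept, with Benjamini-Hochberg adjustment. SE is the log2 fold change divided by the square root of F. Replicate means and SDs are of CPM on the TMM-scaled library size. Alternatives were other scalings, no filter, robust dispersion, a replicate block, DESeq2 1.42.0, limma 3.58.1 (voom with sample quality weights), and libraries left out. The test script was tested on simulated data. Symbols matched 99.4% of gene IDs, coordinates are from GENCODE M21, and promoter sequences are from RefSeq (GRCm38.p6).

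Per-library values were given for Trp53, Cdkn1a and Mdm2, for genes with an unadjusted p under 0.05 or groups apart, and for the 3 smallest p of each role. Genes that changed sign or side of 0.05 without control replicate 2, 2-DG replicate 4 or both were named. The genes, lists and rules were chosen with earlier results of these data known. A count of 3 corresponds to between 0.0556 and 0.255 CPM by library. Without molecular identifiers, this covers counting error only. Values of 1 rod marker and of 1 further target are not reported here, and the rod marker was left out of the summed level.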

Additional observations from a re-analysis of the deposited data

Results flagged for a closer look

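Within each group, each of the 33 genes was checked for a library far from the rest (Dixon's test at the 95% level), which chance alone flags in about 5% of groups. Of 66 groups, 11 were flagged, 9 of them through 2-DG replicate 4. Over all 21049 genes tested, 12.1% of groups were flagged, against 16.7% for the 33 genes, and 2-DG replicate 4 was flagged in 10.7% of all genes and in 27.3% of the 33. In that library Trp53 was at 208 CPM (the other 2-DG libraries between 64.1 and 71.3), Cdkn1a at 939.8 (156 to 187), Bax at 264 (48.8 to 61.9), Pmaip1 at 87.3 (8.91 to 13) and Fas at 18 (8.41 to 9.33). Tnfrsf10b was at 93.5 CPM (18.9 to 29.2), Eda2r at 32.3 (7.21 to 7.5) and Phlda3 at 64.4 (15.5 to 21.4). Mdm4 was the only gene flagged there for a low level, at 95.9 CPM (164 to 177). In control replicate 2, Ddb2 was at 57.3 CPM (15.1 to 18 in the other controls), and in control replicate 3, Polk was at 35.6 CPM (16 to 21.5).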

How the results depend on the processing

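Over 18 alternatives, 542 of 594 fold changes of the 33 genes kept their sign and side of the adjusted threshold, 40 changed sign (14 genes) and 12 newly passed it. The count past an adjusted p of 0.05 was 0 in edgeR with all libraries and under every other scaling, without the filter, with robust dispersion and without any single library. It was 1 with DESeq2 (Fas, adjusted p = 0.0495, with 1.35% of all genes), 8 with limma and quality weights (5.81% of all genes) and 3 without control replicate 2 and 2-DG replicate 4. The count at an unadjusted p under 0.05 was 14 with limma (26% of all genes) and 13 without both libraries (15.7% of all genes), and 3 to 9 without single libraries (4.63% to 12.9% of all genes). Of the 20 further targets, 9 had an unadjusted p under 0.05 with limma and 2 to 5 without single libraries, in place of 4, and 1 passed the adjusted threshold with DESeq2, 4 with limma and 2 without both libraries, in place of 0. Of the 11 upstream genes, 2 had an unadjusted p under 0.05 with limma and 0 to 2 without single libraries, in place of 1. The arrest median was -0.73 with limma, -0.97 without both and -0.82 to -0.14 without single libraries, the repair median -0.22 to 0.04, the death median -0.57 to 0.02 and the feedback median -0.14 to 0.40. Transcripts called numbered 6 (5% of those tested, without 2-DG replicate 3, against 2.89% of all transcripts) to 22 (18.5%, without 2-DG replicate 4, against 7.55%) without single libraries and 37 without both (29.6%, against 8.85%). Promoter matches were 1 for a pair and 11 for at least 1 decamer, the gene with the pair included. The cause was not tested.

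Signs changed with limma for Sesn1 (0.14), Bax (-0.23), Tnfrsf10b (-0.68), Trp53inp1 (-0.14), Dram1 (-0.21) and Tigar (0.01), with library size alone for Ccng1 (-0.01), and without both libraries for Trp53 (-0.19), Ccng1 (-0.04), Sesn1 (0.24), Bax (-0.32), Tnfrsf10b (-0.80), Trp53inp1 (-0.17), Dram1 (-0.39) and Ddb2 (0.05). Over the fits that left libraries out, singly or both together, the fold change ranged from -0.19 to 0.85 for Trp53, -0.14 to 0.40 for Ccng1, -1.03 to 0.18 for Gadd45a, -0.19 to 0.24 for Sesn1, -0.04 to 0.29 for Zmat3, -0.32 to 0.92 for Bax, -0.82 to 0.20 for Bbc3, -0.80 to 0.59 for Tnfrsf10b, -0.50 to 0.06 for Apaf1, -0.17 to 0.43 for Trp53inp1, -0.39 to 0.74 for Dram1, -0.28 to 0.02 for Rrm2b, -0.69 to 0.07 for Ddb2 and -0.32 to 0.02 for Tigar.

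Replicate numbers did not pair the samples throughout: same-numbered libraries correlated at 0.451, -0.155, 0.102 and 0.205. The control that correlated best had the same number only for 2-DG replicate 1. It was control replicate 3 for 2-DG replicate 2 (0.400) and control replicate 1 for 2-DG replicate 3 (0.415). For 2-DG replicate 4 it was control replicate 5, at 0.717. In a fit with a replicate block, control replicate 5 was alone in its block and so did not inform the group difference. With that block the count at an unadjusted p under 0.05 was 4 (6.42% of all genes) and the median -0.11. Those 4 were Btg2, Fas and Psrc1, all lower, and Trp53, higher (0.76, unadjusted p = 0.0138, edgeR adjusted p = 0.662), while Mdm2 was no longer among them (unadjusted p = 0.0855) and Fas moved from -2.37 to -1.59 (unadjusted p = 0.046). Apaf1 changed sign (0.04), and Bbc3 was at 0.00. Low counts limit Psrc1, Perp and Dram1, which had as few as 24, 23 and 9 counts in a library.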
